A study of Mus musculus with 6 samples.

Results

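The PARP family members described here are 10 genes of poly- and mono-ADP-ribosyltransferases, of 54532 genes listed in the table and 13441 tested. They are the rows of these symbols, chosen for their known roles and with earlier results of these data known: Parp1, Parp2 and Parp3 for DNA repair, Parp9, Parp10, Parp11, Parp12 and Parp14 for their known induction by interferon, and Parp4 and Parp8 as further members. Their values come from 6 RNA-seq libraries labelled as mouse bone marrow-derived macrophages (BMDMs) from co-culture with the mouse ovarian cancer line ID8. Pretreatment of the ID8 cells was with 40 µM cisplatin for 3 libraries (the cisplatin group). It was with PBS for the other 3 (the PBS group), so the drug was given to the tumour cells. All libraries also held RNA of ID8 and mesothelial or epithelial marker genes, at unequal levels in the groups (below). The comparison is therefore of the RNA in these libraries and not of macrophages alone. No untreated BMDMs and no ID8 cells on their own were analysed here. Nothing in the labels says that the 3 libraries of a group came from separate animals or cultures, and p-values then measure only the spread between these libraries, which may be technical.

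ADP-ribosyltransferases use NAD to attach ADP-ribose to proteins or nucleic acids. PARP1 and PARP2 build chains of ADP-ribose at DNA breaks, to which repair proteins are drawn, and PARP3 acts mainly at double-strand breaks. PARP10, PARP11, PARP12 and PARP14 attach single ADP-ribose units, PARP9 works as a partner of the ubiquitin ligase DTX3L, and several of these genes are induced by interferon in macrophages and take part in antiviral defence.

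Reads recovered from the deposited values summed to 15776238 to 16396353 per library with cisplatin and 15907567 to 17924686 with PBS, and each member had between 373 and 9680 reads in a library. Libraries of a group correlated with Pearson's r of 0.984 to 0.989 and libraries of different groups with 0.872 to 0.877, across the tested genes, which are not independent replicates. All 8 macrophage markers listed were detected, and their summed level was 4187 to 4341 FPKM with cisplatin against 1635 to 1647 FPKM with PBS. The lysozyme gene Lyz2 carried most of that sum, at 3459 ± 80.4 against 1161 ± 10.8 FPKM, and without it the sum of the other 7 was 775 to 790.1 against 474 to 489 FPKM. Among these, Cd68 was at 179 ± 2.52 against 156 ± 8.92 FPKM. For example, Csf1r, the receptor for macrophage colony-stimulating factor, stood at 84.5 ± 2.37 against 44.0 ± 0.623 FPKM (SD, n = 3 each). Of 10 markers of ID8 and mesothelial or epithelial cells, 6 were lower past both thresholds given below, beside 11.3% of all tested genes. Msln was lower but short of the fold threshold, at 61.0 ± 2.10 against 99.9 ± 1.29 FPKM (log2 fold change -0.70). Krt7, Lrrn4 and Epcam were under 1 FPKM in both groups. The sum of the 10 markers was 177 to 191 FPKM with cisplatin against 998 to 1074 FPKM with PBS. The keratin gene Krt19 was at 51.1 ± 3.80 against 588 ± 28.8 FPKM. Of 7 lymphocyte markers, Cd3e, Cd3g and Cd3d were under 1 FPKM in both groups. The summed level was 372 to 388 FPKM with cisplatin against 162 to 168 FPKM with PBS. The B cell genes Cd79a (147 against 63.9 FPKM), Cd79b (178 against 79.8 FPKM) and Ms4a1 (49.0 against 15.7 FPKM) carried most of it. Nkg7 was at 5.12 against 3.62 FPKM. Xist was at 7.79 ± 0.194 against 42.7 ± 5.35 FPKM, and the 4 Y-linked genes summed to 41.6 to 42.8 against 19.5 to 22.7 FPKM. The part of these differences in every member's result below was not tested, and in such bulk RNA fewer cells of a type and less RNA per cell cannot be told apart.

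The DNA upstream of the members was examined first, for the letters of 2 interferon-related motifs: the core of the interferon-stimulated response element (ISRE), which is GAAA, any 2 bases and GAAA, and the gamma-activated site (GAS), TTCNNNGAA, on both strands of the 250 bases before the start. RefSeq promoter windows (GRCm38.p6) were found for 7 of the 10 members, 8 windows in all. Parp9, Parp10 and Parp14 had no entry. The ISRE core was found in 2 members, Parp11 and Parp4, and the GAS core in Parp11 alone. Over all 32851 windows, 2.98% held the ISRE core and 7.02% the GAS core. In Parp11 the ISRE core began 44 bases before the start on the minus strand and overlapped the GAS core, which began at position -37; its second window held neither. In Parp4 a pair of overlapping ISRE cores began at positions -150 and -144. The 160 bases before the start are shown for these genes and for Parp12, the member with the largest difference in expression and no match, with the matches in capitals. The Parp11 stretch is chr6:127446680-127446839 (plus strand), that of Parp4 is chr14:56575459-56575618 (plus strand) and that of Parp12 is chr6:39118350-39118509 (minus strand).
Parp11: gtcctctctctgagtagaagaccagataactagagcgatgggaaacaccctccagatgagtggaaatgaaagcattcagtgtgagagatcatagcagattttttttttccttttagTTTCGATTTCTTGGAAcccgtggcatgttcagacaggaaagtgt
Parp4: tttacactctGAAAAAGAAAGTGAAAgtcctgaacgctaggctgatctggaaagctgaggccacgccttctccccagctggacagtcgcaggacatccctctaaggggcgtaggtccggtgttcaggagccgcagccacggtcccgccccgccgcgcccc
Parp12: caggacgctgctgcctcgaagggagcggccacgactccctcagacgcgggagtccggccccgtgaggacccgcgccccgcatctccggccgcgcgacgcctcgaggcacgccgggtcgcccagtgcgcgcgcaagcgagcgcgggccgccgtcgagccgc
A match describes letters only, and of these genes Parp4 had overlapping groups, Parp11 was lower with cisplatin, and Parp12 was lower by the largest amount.

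Compared with PBS, 4 of the 10 members were downregulated in the cisplatin libraries, all of them interferon-linked (Parp9, Parp10, Parp12 and Parp14), and 0 were upregulated. A gene was called when its limma p, Benjamini-Hochberg adjusted over the 13441 tested genes, was under 0.05 and its log2 fold change on log2(FPKM + 1) was at least 1 in size. Of all tested genes, 11.3% were called lower and 4.67% higher, 1514 and 628 genes, so that the higher calls made up 29.3% of the calls. Scaling by the Y-linked genes made that share 1.7%, and voom on recovered reads, scaled by their total, made it 39.7%. Without the fold threshold, 7 members were lower and 1 was higher, against 35.1% and 32.9% of all tested genes. The groups did not overlap in 8 members, 7 lower and 1 higher, against 37.2% and 35.2% of tested genes, or 72.4% in either direction. The median log2 fold change was -1.26 over the 5 interferon-linked members, -0.13 over the 3 DNA-repair members and -0.0011 over all tested genes.

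**Figure D1:**
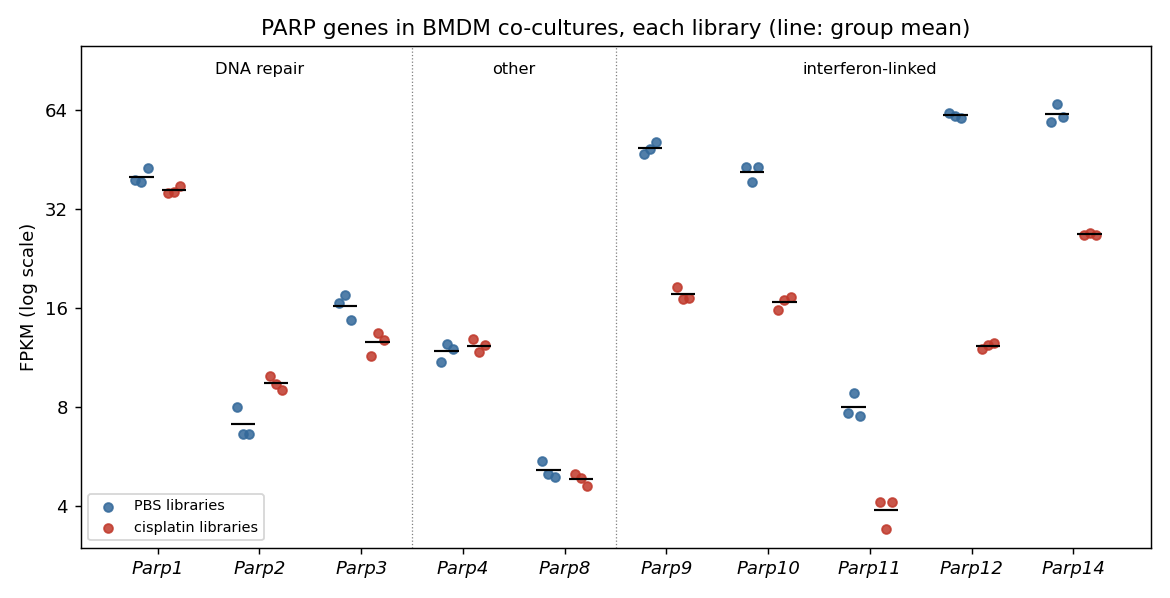
FPKM of the 10 members in each library (log axis), with PBS libraries in blue, cisplatin libraries in red and a line at the group mean (n = 3). All 5 interferon-linked genes lie lower in the cisplatin libraries without overlap, as do Parp1 and Parp3. Parp2 lies higher without overlap, whereas Parp4 and Parp8 overlap. Among all tested genes, 37.2% were lower without overlap and 35.2% higher.

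Among the DNA-repair members, Parp1 (ENSMUSG00000026496, GRCm38 chromosome 1, 180568924 to 180601254, plus strand), whose protein is the main sensor of DNA breaks in the family, was at 35.9, 36.1 and 37.5 FPKM in the cisplatin libraries and 39.1, 38.6 and 42.5 FPKM in the PBS libraries. The groups lay close together without overlap, at 36.5 ± 0.876 against 40.1 ± 2.14 FPKM (SD, n = 3 each). The log2 fold change was -0.13 (SE 0.047), with a limma adjusted p of 0.0417. It stayed under 0.05 in 6 of 11 other settings and in 1 of 6 fits that left out a library, that without PBS replicate 2. It was 0.464 after quantile normalisation and 0.405 after scaling by total recovered reads, whereas with Y-linked scaling Parp1 was called lower at -1.08 (limma adjusted p = 1.68e-05), beside an all-gene median of -0.81.

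Parp2 (ENSMUSG00000036023, chromosome 14, 50807841 to 50821301, plus strand), which shares the break-repair role of Parp1, stood at 9.97, 9.43 and 9.01 FPKM with cisplatin and 8.04, 6.65 and 6.63 FPKM with PBS. It was the one member whose cisplatin libraries all lay above the PBS libraries, at 9.47 ± 0.478 against 7.11 ± 0.805 FPKM (SD, n = 3 each), or 133% of the PBS mean. The log2 fold change of 0.37 (SE 0.080, limma adjusted p = 0.00502) was under the fold threshold. With Y-linked scaling Parp2 was at -0.50, a change of sign beside an all-gene median of -0.81, which Parp2 still exceeded.

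Parp3 (ENSMUSG00000023249, chromosome 9, 106470322 to 106476949, minus strand) was at 11.5, 13.5 and 12.8 FPKM with cisplatin and 16.5, 17.5 and 14.8 FPKM with PBS. All cisplatin libraries lay below the PBS libraries, and the mean of 12.6 ± 1.01 FPKM was 77.3% of the PBS mean of 16.3 ± 1.39 FPKM (SD over 3 libraries each; log2 fold change -0.35, SE 0.080, limma adjusted p = 0.00706). The fold threshold was not reached, except under Y-linked scaling, with -1.26 (limma adjusted p = 2.14e-06) beside the all-gene median of -0.81. In the table Parp3 overlaps Rrp9 on the opposite strand, a gene that was higher with cisplatin, and reads of overlapping genes are less certain because the use of strand in counting is not stated.

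The further members, Parp4 and Parp8, had overlapping groups and passed neither threshold. Parp4 (ENSMUSG00000054509, chromosome 14, 56575619 to 56659794, plus strand), a component of the ribonucleoprotein particles called vaults, was at 12.9, 11.7 and 12.3 FPKM with cisplatin and 11, 12.4 and 12 FPKM with PBS (log2 fold change 0.055, 95% confidence interval -0.086 to 0.197, limma adjusted p = 0.437). Parp8 (ENSMUSG00000021725, chromosome 13, 116854820 to 117025537, minus strand) was at 5.02, 4.89 and 4.62 FPKM and 5.5, 5.03 and 4.90 FPKM (log2 fold change -0.072, 95% confidence interval -0.220 to 0.075, limma adjusted p = 0.336). Under Y-linked scaling, where the median of all tested genes was -0.81, Parp4 was at -0.85 (limma adjusted p = 3.10e-05) and Parp8 at -0.88 (1.29e-05). With voom, where that median was 0.085, Parp4 was at 0.15 (limma adjusted p = 0.0300), and after quantile normalisation, where it was 0.10, Parp8 was at 0.036. The adjusted p was under 0.05 in 2 of 11 such settings for Parp4 and in 1 of 11 for Parp8.

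Among the interferon-linked members, Parp12 (ENSMUSG00000038507, chromosome 6, 39086410 to 39118349, minus strand), a zinc-finger mono-ADP-ribosyltransferase with antiviral activity, was at 12, 12.3 and 12.5 FPKM with cisplatin and 62.7, 61.3 and 60.6 FPKM with PBS. Its libraries were tightly grouped, at 12.3 ± 0.268 against 61.5 ± 1.06 FPKM (SD, n = 3 each), so that the PBS level was 5.01-fold the cisplatin level. The log2 fold change of -2.23 (SE 0.035, limma adjusted p = 5.85e-08) ranked 279 from the lowest of 13441 tested genes. It ranged from -2.25 to -2.22 when each library was left out.

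Parp9 (ENSMUSG00000022906, chromosome 16, 35938470 to 35972605, plus strand) was at 18.6, 17.0 and 17.2 FPKM with cisplatin and 47.1, 48.7 and 51.2 FPKM with PBS. The cisplatin mean of 17.6 ± 0.836 FPKM was 35.9% of the PBS mean of 49.0 ± 2.05 FPKM (SD over 3 libraries each; log2 fold change -1.43, SE 0.049, limma adjusted p = 6.85e-07). Its partner gene Dtx3l (ENSMUSG00000049502), on the opposite strand and overlapping Parp9 in the table, was at 19.9, 19.6 and 20.4 FPKM with cisplatin and 56.0, 59.3 and 58.7 FPKM with PBS. Its log2 fold change was -1.49 (SE 0.038, limma adjusted p = 1.97e-07), also without overlap of the groups, and reads of this pair may be shared by the counting.

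Parp14 (ENSMUSG00000034422, chromosome 16, 35832874 to 35871544, minus strand), a macrodomain protein studied in macrophage responses to interleukin-4 and interferon, was at 26.7, 27.0 and 26.7 FPKM with cisplatin and 58.8, 66.7 and 60.9 FPKM with PBS. The means were 26.8 ± 0.170 and 62.1 ± 4.10 FPKM (SD, n = 3 each), a level 2.32-fold higher with PBS (log2 fold change -1.18, SE 0.051, limma adjusted p = 1.82e-06). Under limma treat, which asks whether a change is beyond the fold threshold, its adjusted p was 0.0516.

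Parp10 (ENSMUSG00000063268, chromosome 15, 76231174 to 76243441, minus strand), a mono-ADP-ribosyltransferase, was at 15.8, 17.0 and 17.3 FPKM with cisplatin and 43.0, 38.6 and 42.9 FPKM with PBS. The PBS mean of 41.5 ± 2.51 FPKM was 2.48-fold the cisplatin mean of 16.7 ± 0.783 FPKM (SD over 3 libraries each; log2 fold change -1.26, SE 0.057, limma adjusted p = 2.37e-06). It overlaps Plec in the table, whose own log2 fold change was 0.052 (limma adjusted p = 0.594).

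Parp11 (ENSMUSG00000037997, chromosome 6, 127446840 to 127494261, plus strand), the gene with both motif cores in 1 of its 2 windows, was at 4.13, 3.42 and 4.12 FPKM with cisplatin and 7.70, 8.82 and 7.52 FPKM with PBS. The groups did not overlap, at 3.89 ± 0.406 against 8.01 ± 0.705 FPKM (SD, n = 3 each), 48.6% of the PBS level. On log2(FPKM + 1), which understates the change of low genes, the log2 fold change was -0.88 (SE 0.087, limma adjusted p = 0.000103), short of the fold threshold. It passed that threshold at -1.02 with a pseudocount of 0.1 and at -1.70 (limma adjusted p = 6.42e-07) with Y-linked scaling, beside the all-gene median of -0.81.

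The order of the members differed between the groups. FPKM is a level per listed gene length, whatever transcripts were expressed, so members can be set beside each other only roughly. Reads of members that overlap another gene are less certain, as given above. The shares below carry the same limit. In the PBS libraries Parp14 and Parp12 stood highest, with overlapping ranges, followed by Parp9, then Parp10 and Parp1, which overlapped, Parp3, Parp4, Parp11 and Parp2, which overlapped, and Parp8. In the cisplatin libraries Parp1 stood highest, followed by Parp14, Parp9 and Parp10, which overlapped, then Parp3, Parp4 and Parp12, which overlapped in turn, Parp2, Parp8 and Parp11. Parp12 thus stood at rank 2 with PBS and at rank 7 with cisplatin.

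The summed level of all 10 members was 152 to 154 FPKM with cisplatin and 299 to 304 FPKM with PBS. The interferon-linked members summed to 76.7 to 77.9 against 219 to 224 FPKM, and made up 50.4% to 50.6% of the members' total with cisplatin against 73.2% to 73.6% with PBS. The DNA-repair members summed to 57.3 to 59.3 against 62.8 to 63.9 FPKM, and their share was 37.6% to 38.7% against 20.6% to 21.3%. Such shares do not depend on how a library is scaled. The share of Parp11 overlapped between the groups, while that of Parp12 was 7.87% to 8.12% against 19.9% to 20.9%.

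**Figure D2:**
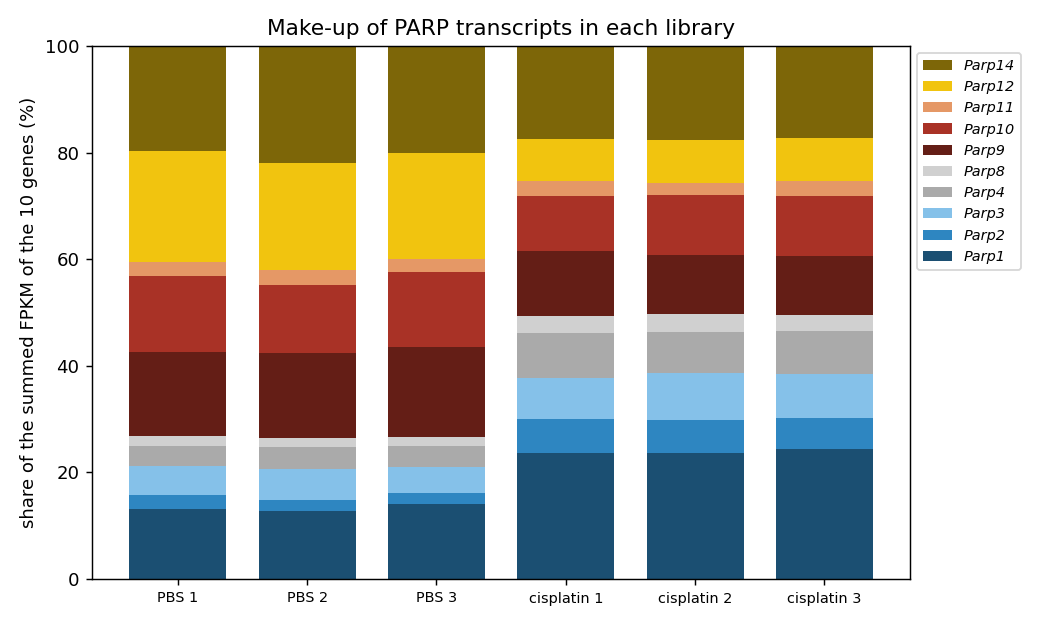
Share of each member in the summed FPKM of the 10 genes (%), one bar per library. DNA-repair genes are in blue shades, Parp4 and Parp8 in grey and interferon-linked genes in red to yellow shades, which take 73.2% to 73.6% of each PBS bar and 50.4% to 50.6% of each cisplatin bar.

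The ratio to Parp1 within a library is likewise free of scaling. Parp12 was at 0.337 ± 0.0048 times the Parp1 level with cisplatin and 1.54 ± 0.099 times with PBS (SD, n = 3 each). For Parp14 the mean ratios were 0.734 and 1.55, for Parp9 0.483 and 1.22, for Parp10 0.458 and 1.04, and for Parp11 0.107 and 0.201. The ratios of Parp2 (0.260 against 0.178) and Parp4 (0.338 against 0.295) were higher with cisplatin. In 7 of the 9 members compared the groups did not overlap, beside 71.3% of all other tested genes set against Parp1 in the same way, a similar share. An exact two-sided permutation test over libraries cannot go below 0.1 with 3 against 3, and gave that p for these 7 members (0.129 adjusted over the 9), so it could not reach 0.05.

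Of 6 other PARP family genes, 0 were called in either direction, and 5 were lower at an adjusted p under 0.05 alone, with groups that did not overlap. Of all tested genes, 15.9% were called, 35.1% were lower at adjusted p alone and 37.2% lower without overlap. Tiparp, an enzyme induced by the aryl hydrocarbon receptor, was at 14.1 ± 1.08 against 27.6 ± 1.39 FPKM (log2 fold change -0.92, SE 0.065). Parp16, an enzyme of the endoplasmic reticulum, was at 1.04 ± 0.367 against 2.93 ± 0.295 FPKM (log2 fold change -0.96, SE 0.139). Its cisplatin mean was 35.5% of the PBS mean, beside 35.9% for the called member Parp9. At such low FPKM the change on log2(FPKM + 1) is understated. The log2 fold changes were smaller for the tankyrases Tnks (-0.48) and Tnks2 (-0.38) and for Parp6 (-0.43). The antiviral zinc-finger gene Zc3hav1, a catalytically inactive relative, was at 45.0, 43.9 and 43.4 FPKM with cisplatin and 46.3, 48.2 and 44.0 FPKM with PBS. Its groups overlapped (log2 fold change -0.064, 95% confidence interval -0.165 to 0.038, limma adjusted p = 0.2245), beside a difference in Parp12, another zinc-finger PARP.

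**Figure D3:**
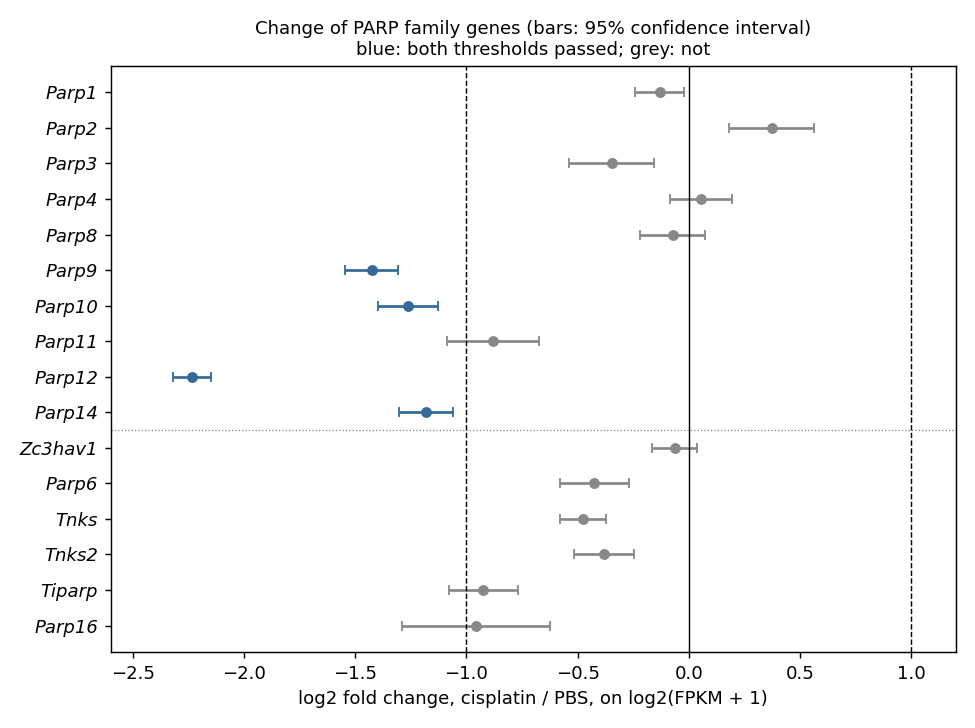
Log2 fold change, cisplatin against PBS, of the 10 members (above the dotted line) and 6 other PARP family genes (below it), with 95% confidence intervals and dashed lines at the fold threshold. Parp9, Parp10, Parp12 and Parp14 are past both thresholds, and Parp12 lies farthest out at -2.23.

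Genes that remove or read ADP-ribose, or partner the PARPs, were 10 tested of 11 listed: 0 were called higher and 2 lower (median log2 fold change 0.11), beside 4.67% and 11.3% of all tested genes. The called genes were Dtx3l and Macrod1, a mitochondrial hydrolase of ADP-ribose marks, at 2.48 ± 0.458 against 12.5 ± 1.54 FPKM (SD over 3 libraries each; log2 fold change -1.96, SE 0.122, limma adjusted p = 1.09e-05). Parg, the hydrolase of ADP-ribose chains, was at 11.3, 11.4 and 11 FPKM with cisplatin and 9.0, 10.3 and 8.0 FPKM with PBS (log2 fold change 0.29, limma adjusted p = 0.0190). Hpf1, which directs PARP1 and PARP2 to serine, was at 9.48 ± 0.516 against 7.73 ± 0.201 FPKM (log2 fold change 0.26, limma adjusted p = 0.00374). Both were higher with groups that did not overlap, under the fold threshold. At adjusted p alone 4 genes of this list were higher and 3 lower, beside 32.9% and 35.1% of all tested genes.

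Of 8 strand-break repair partners, all tested, 1 was called higher and 0 lower, beside 4.67% and 11.3% of all tested genes, and 0.23 was the median log2 fold change. The called gene was Apex1, the nuclease that cuts at abasic sites, at 10.9, 12.9 and 12.1 FPKM with cisplatin and 4.45, 4.79 and 5.85 FPKM with PBS (log2 fold change 1.11, SE 0.101, limma adjusted p = 6.97e-05). Xrcc1, the scaffold drawn to ADP-ribose chains, was at 7.07 ± 0.863 against 5.54 ± 0.0924 FPKM (log2 fold change 0.30, limma adjusted p = 0.0168), and Lig3, its ligase partner, at 6.10 ± 0.142 against 7.09 ± 0.208 FPKM (log2 fold change -0.19, limma adjusted p = 0.0108). Aptx, which removes AMP from stalled ligation ends, was at 3.23 ± 0.221 against 6.01 ± 0.571 FPKM (log2 fold change -0.73, limma adjusted p = 0.000176). At adjusted p alone 4 of these partners were higher and 2 lower, beside 32.9% and 35.1% of all tested genes.

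**Figure D4:**
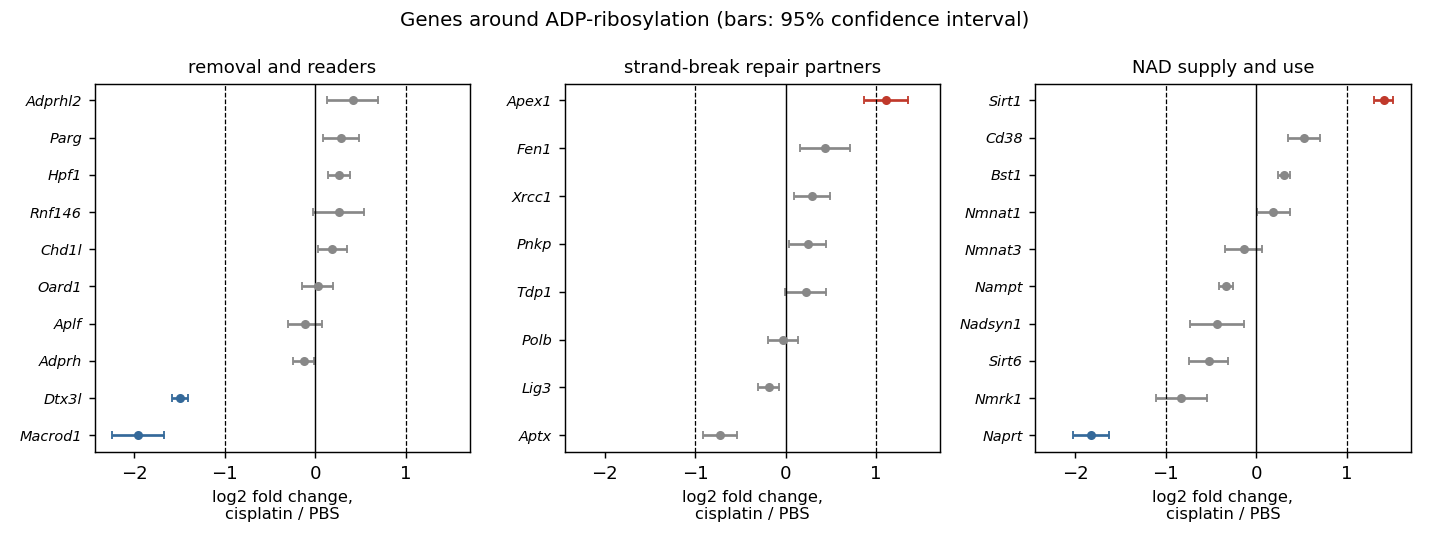
Log2 fold change, cisplatin against PBS, of the 28 tested genes around ADP-ribosylation in 3 panels, with 95% confidence intervals and dashed lines at the fold threshold. Red points passed both thresholds upwards (Apex1, Sirt1) and blue points downwards (Macrod1, Dtx3l, Naprt).

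Protein-coding genes within 50 kb of a member were 24, of which 18 were tested, with 2 called higher and 2 lower, beside 15.9% of all tested genes called in either direction. On chromosome 16, Parp9 and Dtx3l were lower while Kpna1, the neighbour of Parp9, was at 13.6 ± 0.432 against 14.1 ± 1.02 FPKM (log2 fold change -0.042, limma adjusted p = 0.548) and Hspbap1, the neighbour of Parp14, at 1.99 ± 0.177 against 1.45 ± 0.0915 FPKM (log2 fold change 0.28, limma adjusted p = 0.0203). Beside Parp12, Kdm7a had a log2 fold change of 0.19 and Tbxas1, thromboxane synthase, rose from 1.15 ± 0.115 to 3.71 ± 0.306 FPKM (log2 fold change 1.13, SE 0.084). Grina, the neighbour of Parp10, was lower without overlap of the groups, at 120 ± 1.95 against 224 ± 3.62 FPKM (log2 fold change -0.90, limma adjusted p = 6.09e-07), under the fold threshold. Near Parp3, Rrp9 rose from 4.70 ± 0.452 to 12.2 ± 1.01 FPKM (log2 fold change 1.22, SE 0.082) and Pcbp4 fell from 4.0 ± 0.284 to 1.49 ± 0.246 FPKM (log2 fold change -1.01, SE 0.096).

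Among genes with a profile most like that of Parp14 over the 6 libraries, by the root mean square difference of centred log2(FPKM + 1), were Rgs10 (0.032) and Disp1 (0.033). For Parp1 they were Sema4b (0.024), Rangap1 (0.024) and Tmem50a (0.026). Only genes with a mean of at least 5 FPKM were compared, and the 6 libraries fall into 2 groups.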

How the data were processed

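FPKM values for 6 libraries were used as deposited. Per their methods, the authors filtered reads, aligned and counted them with LifeScope and tested counts with DESeq2, whereas the submitters' processing notes name fastp, HISAT2 2.0.5, featureCounts 1.5.0-p3 and mm10. All 10 members have the same coordinates in GENCODE M21. Multiplied by gene length, 100% of FPKM values under 200 reads were whole within 0.1 read. The FPKM denominators of the 6 libraries, divided by median-of-ratios size factors of the recovered reads, agreed to a ratio of 1.00000, so the deposited values carry that scaling and not one by total reads.

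Genes with at least 1 FPKM in at least 3 libraries were tested on log2(FPKM + 1) with limma 3.58.1 under R 4.3.3 (group as the only term, eBayes with trend), and called where the p after Benjamini-Hochberg adjustment was under 0.05 and the log2 fold change reached 1 in size. The procedure was tested on simulated data. Ratios were compared by an exact permutation test (scipy 1.17.1). Named genes were all members, 6 other PARP genes, Dtx3l, Parg, Hpf1 and Nampt, the 2 largest called changes in each part of the ADP-ribosylation list, the 3 genes most like Parp14 and Parp1, called neighbours within 50 kb, and Krt19, Csf1r and Xist. A single-gene result of this rule is not reported here. Names outside this rule were picked with their values in view. Members and lists were chosen with earlier results of these data known. In all, 20 alternative settings were tried. Equal replicate numbers are not stated to mark shared preparation.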

Additional observations from a re-analysis of the deposited data

How the results depend on the processing

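Median-of-ratios scaling returned the reported values, because the deposited FPKM already carry it, and is no check of them. Of 200 comparisons of a member's value with an alternative, that scaling included, 187 kept direction and side of the thresholds, 8 newly passed, 1 no longer passed (Parp14 with limma treat) and 4 reversed: Parp8 to 0.036 with quantile normalisation and 0.00040 with scaling by total reads, and Parp2 to -0.50 and Parp4 to -0.85 with scaling by Y-linked genes. The count of members called lower was 4, and became 5 with a pseudocount of 0.1, 3 with limma treat, 7 with Y-linked scaling and 7 at adjusted p alone, where 1 was higher. The counts of 628 genes higher and 1514 lower became 973 higher with a pseudocount of 0.1, 87 and 5037 with Y-linked scaling, 1227 higher with voom, 4424 and 4721 at adjusted p alone, and 240 and 982 with limma treat. The interferon-linked median was -1.31 with a pseudocount of 0.1, -1.30 with TPM rescaling (which also raises all values against the pseudocount), -1.19 with quantile normalisation, -1.18 with total reads, -2.20 with Y-linked scaling, -1.23 with voom, and between -1.31 and -1.23 when each library was left out. The DNA-repair median was -0.039 with quantile normalisation, -0.046 with total reads, -1.08 with Y-linked scaling and -0.046 with voom. The median of all tested genes shifted to -0.81 with Y-linked scaling and to 0.10 with quantile normalisation. With the replicate block, 4 members, 625 genes higher and 1515 lower were called, and same-numbered libraries did not deviate together (correlations -0.104, -0.0857 and -0.0236). The cause of these movements was not tested. Depth left 373 or more reads behind each member's value.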

Other observations

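Genes that supply or use NAD, the substrate of the PARPs, numbered 12, of which 10 were tested, with 1 called higher and 1 lower (median log2 fold change -0.24), beside 15.9% of all tested genes called in either direction. Sirt1, an NAD-dependent deacetylase, was at 12.6, 12.6 and 12 FPKM with cisplatin and 4.0, 4.0 and 4.14 FPKM with PBS, without overlap (log2 fold change 1.41, SE 0.046, limma adjusted p = 5.20e-07). Naprt, which makes NAD from nicotinic acid and overlaps Eef1d in the table, was at 0.727, 0.909 and 0.775 FPKM against 5.74, 5.51 and 4.92 FPKM (log2 fold change -1.82, SE 0.083, limma adjusted p = 2.32e-06). Nampt, the limiting enzyme of NAD salvage, was at 75.6 ± 1.41 against 95.7 ± 2.02 FPKM (SD over 3 libraries each; log2 fold change -0.34, limma adjusted p = 9.61e-05), under the fold threshold. The NAD-consuming ectoenzymes Cd38 (29.5 ± 1.78 against 20.1 ± 1.83 FPKM) and Bst1 (103 ± 0.395 against 82.8 ± 1.07 FPKM) were higher at limma adjusted p of 0.000658 and 7.95e-05, also under the fold threshold. At adjusted p alone 3 of the list were higher and 5 lower, beside 32.9% and 35.1% of all tested genes. The lower genes beside Naprt and Nampt were Nmrk1, which makes NAD from its riboside (3.0 ± 0.401 against 6.11 ± 0.899 FPKM, limma adjusted p = 0.000690), the NAD-dependent deacylase Sirt6 (5.75 ± 0.782 against 8.67 ± 0.501 FPKM, limma adjusted p = 0.00177) and the NAD synthetase Nadsyn1 (2.31 ± 0.504 against 3.44 ± 0.319 FPKM, limma adjusted p = 0.0187).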
